A study of Mus musculus with 39 samples.

Results

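Granulocytic (G) and monocytic (M) sorts from the spleens of APCmin/+ mice were compared in 6 libraries, 3 of each sort, out of 39 libraries in 13 groups of a series on myeloid-derived suppressor cells. The 6 libraries were taken by their labels, and a G and an M library that carry the same number in their titles (1, 2 or 3) were treated as a pair. Levels are TPM, which give transcripts relative to their length and are scaled to the same total in every library. Of the 53465 genes in the deposited table, 27808 were above 0 in any of the 6 libraries, and the 13858 that reached a TPM of 1 in 3 or more of them were tested. Differences are of log2(TPM + 1), G minus M, so that a positive value means a higher level in the G sort.

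The G-MDSC sort was set against the M-MDSC sort, both from the spleen of mice labelled APCmin/+ mutant. These mice are heterozygous for a mutant allele of Apc, a brake on Wnt signalling, and develop intestinal tumours, and both sorts carry the allele. G and M sorts of the spleen of BALB/c mice labelled as immune-deficient, 3 libraries each, served as a second spleen. The surface markers of the sorts, the age and strain background of the APCmin/+ mice, their tumour load and whether a number marks 1 animal or a pool are stated nowhere in the sources used here. Myeloid-derived suppressor cells are immature myeloid cells that accumulate in tumour-bearing hosts and restrain T cells. The G subset resembles neutrophils, which pack their granule proteins in an order set by maturation and stop dividing before they leave the marrow. The M subset resembles inflammatory monocytes, which enter blood and spleen through the chemokine receptor Ccr2 and can still become macrophages or dendritic cells. The spleen of a tumour-bearing mouse can itself become a site of myeloid and erythroid blood formation.

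Pearson correlations of log2(TPM + 1) between the 6 libraries ran from 0.924 to 0.97, and that between G and M library 1 (0.964) was about as high as those between G libraries. Each library had between 21656 and 22856 genes above 0. Mitochondrial genes took 8.76%, 8.21% and 8.77% of TPM in G libraries 1, 2 and 3, against 5.48%, 4.03% and 3.68% in M libraries 1, 2 and 3. Immunoglobulin genes took 10.3%, 6.73% and 5.07% in the G libraries, against 9.92%, 5.64% and 3.92% in the M libraries. Each of the 6 libraries expressed Xist, at between 259 and 469 TPM, and had at most 0.22 TPM of the Y-linked genes Kdm5d, Uty, Ddx3y and Eif2s3y.

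The first question was which genes separated the sorts. A gene was called when limma's moderated test, with the pair as a block, gave a Benjamini-Hochberg adjusted p under 0.05 and the levels differed at least 2-fold. By this test 103 genes (0.743% of those tested) were higher in the G sort and 508 (3.67%) were lower. Among the 103 were transcripts of neutrophils and mitochondria, and among the 508 were transcripts of monocytes, granule genes of myeloid precursors and genes of cell division. Differences of at least 1 on the log2 scale in each of the 3 pairs were found for 14 genes upward (0.101%) and 83 downward (0.599%). The median over all genes tested was -0.13, and rescaling each library by its median ratio moved it to 0.04 and the called genes to 218 higher and 282 lower, so that 43.6% of calls were upward in place of 16.9%. The calls rest on a spread estimated with the help of the other 33 libraries: in a fit of the 6 libraries alone 0 genes were called, although 5056 had an unadjusted p under 0.05, and leaving the pair out of the model left 23 higher and 225 lower.

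**Figure D1:**
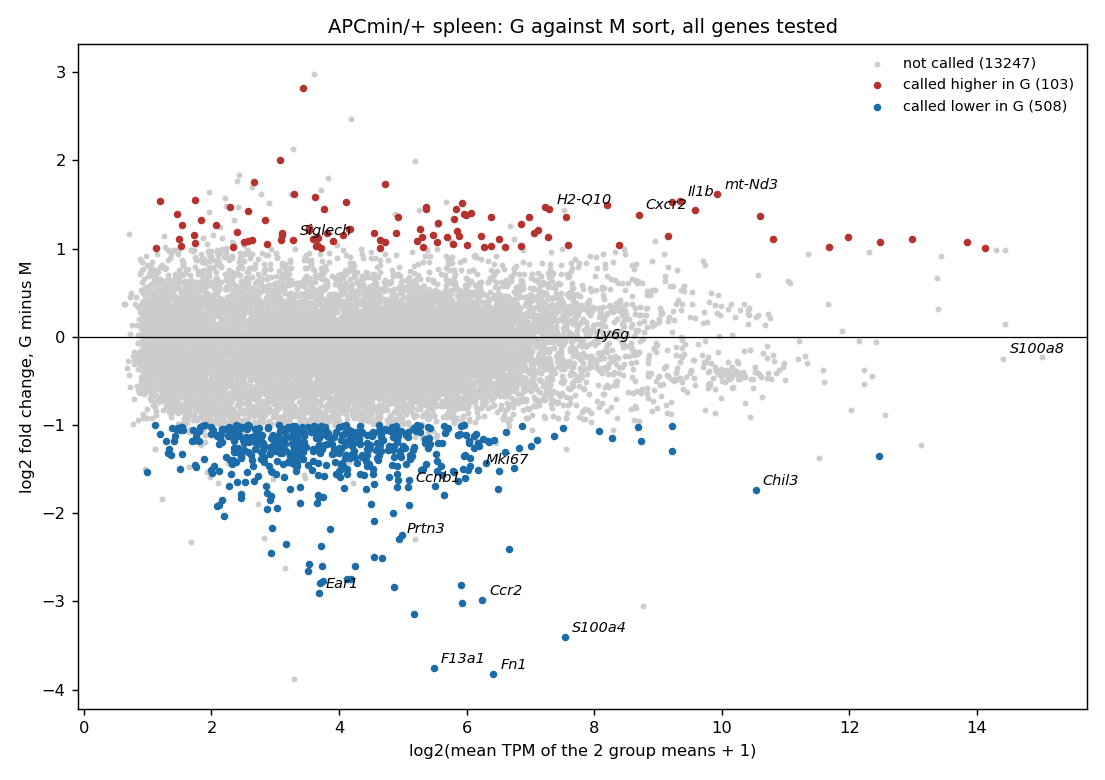
Log2 fold change, G minus M, against the level of each gene, as log2 of the mean TPM plus 1, for the 13858 genes tested in APCmin/+ spleen. Red points are the 103 genes called higher and blue points the 508 called lower in the G sort, and the lowest blue points are the monocyte genes Fn1 and F13a1.

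The pairs did not contribute equally. The 103 higher genes had median differences of 1.60, 0.63 and 1.34 in pairs 1, 2 and 3. Of these genes, 66 were farthest apart in pair 1 and 74 were closest in pair 2. The 508 lower genes had medians of -0.98, -1.32 and -1.53, with 257 farthest apart in pair 3 and 271 closest in pair 1. Across the 13858 genes the differences of pairs 1 and 3 correlated at r = 0.648, those of pairs 1 and 2 at 0.398 and those of pairs 2 and 3 at 0.441, as a description over genes measured in the same libraries. Without pair 3 the calls came to 45 higher and 285 lower, and without pair 2 to 202 higher and 634 lower.

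Monocyte genes were among those that fell farthest in the G sort. Of 22 monocyte genes, all of them tested, 12 fell and 0 rose (3.67% and 0.743% of all genes). Of these 22, 9 fell by at least 1 in each pair (0.599% of all genes). The median of the list was -1.33, against -0.13 over all genes tested. In a bulk library, fewer cells of a type and less RNA per cell cannot be told apart.

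Ccr2, the chemokine receptor that brings monocytes out of marrow (mm10, RefSeq gene position, chromosome 9, 124101918 to 124109140), had 8.13, 13.45 and 11.9 TPM in G libraries 1, 2 and 3, against 89.9, 30.15 and 296.5 TPM in M libraries 1, 2 and 3. The groups did not overlap, and M library 2 was the lowest of the M libraries. The 3 paired differences were -3.31, -1.11 and -4.53, and the fitted log2 fold change was -2.98 ± 0.47 (SE; adjusted p = 5.4e-05). This SE, like those of the genes below, rests on a spread pooled over all 39 libraries. It does not measure how far the 3 pairs lay apart. F13a1, the A chain of clotting factor XIII made by monocytes and macrophages (chromosome 13, 36867178 to 37050244), had 1.45, 5.99 and 4.82 TPM in the G libraries, against 49.4, 26.9 and 173 TPM in the M libraries. Again M library 2 was nearest to the G libraries and M library 3 farthest (log2 fold change -3.76 ± 0.42, adjusted p = 2.55e-06). Fn1, which encodes fibronectin (chromosome 1, 71585473 to 71653280), had 5.30, 5.72 and 8.43 TPM in the G libraries, against 118.5, 26.6 and 343 TPM in the M libraries, and fell by 3.83 on the log2 scale (SE 0.64, adjusted p = 1.0e-04).

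The same order of the M libraries, 3 above 1 above 2, held for 3 further monocyte genes that fell. S100a4, a calcium-binding protein of motile cells, had 19.1, 18.9 and 27.9 TPM in the G libraries, against 236, 77.1 and 734 TPM in the M libraries. Cx3cr1, the fractalkine receptor of patrolling monocytes, had 2.31, 1.60 and 2.82 TPM in the G libraries, against 29.9, 4.48 and 57.6 TPM in the M libraries. Klf4, a transcription factor needed for monocyte formation, had 1.64, 1.66 and 3.11 TPM in the G libraries, against 11.01, 5.39 and 20.3 TPM in the M libraries. The sorts stayed apart in every pair for these 3 genes, with paired differences of Klf4 of -2.19, -1.26 and -2.37. Ms4a6c and Vcan, which encodes the matrix proteoglycan versican, also fell by at least 1 in each pair, with log2 fold changes of -2.40 and -2.66. Of the genes with the largest falls outside the list, Tppp3 (-3.15), F10, which encodes clotting factor X (-2.76), and Ms4a4a (-2.83) were apart in every pair too. Ear1, an eosinophil-associated ribonuclease whose close relatives can share reads, was at -2.91 with its highest M level in library 1 (52.4 TPM).

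Other members of the list overlapped between the sorts or did not pass the test. Ly6c2, which encodes the Ly6C antigen of inflammatory monocytes and has close relatives that can share reads, had 160, 706 and 264 TPM in the G libraries, against 523, 738 and 1158 TPM in the M libraries. The groups overlapped, and the paired differences were -1.70, -0.06 and -2.13. Its fall of 1.30 (SE 0.44, adjusted p = 0.0274) was no longer called without pair 1 (-1.10), without pair 3 (-0.88) or without the block. Csf1r, the receptor for macrophage colony-stimulating factor, had 252, 130.5 and 235 TPM in the G libraries, against 620, 148 and 573 TPM in the M libraries, and was not called (-0.92 ± 0.39, adjusted p = 0.071). Cd14 (0.12), Irf8 (0.08) and Tgfbi (-0.03) had log2 fold changes near 0. Over the whole list the median differences of pairs 1, 2 and 3 were -1.66, -0.12 and -2.20, so that in pair 2 the typical member lay near 0. The number of members that fell was 12 with all pairs and between 9 and 15 with 1 pair left out, and 9 without the block. Resident macrophage genes summed to 2810, 1427 and 2207 TPM in the G libraries, against 6482, 1732 and 3732 TPM in the M libraries, and M library 2 was again the lowest of its sort. Their part in the monocyte result was not tested.

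**Figure D2:**
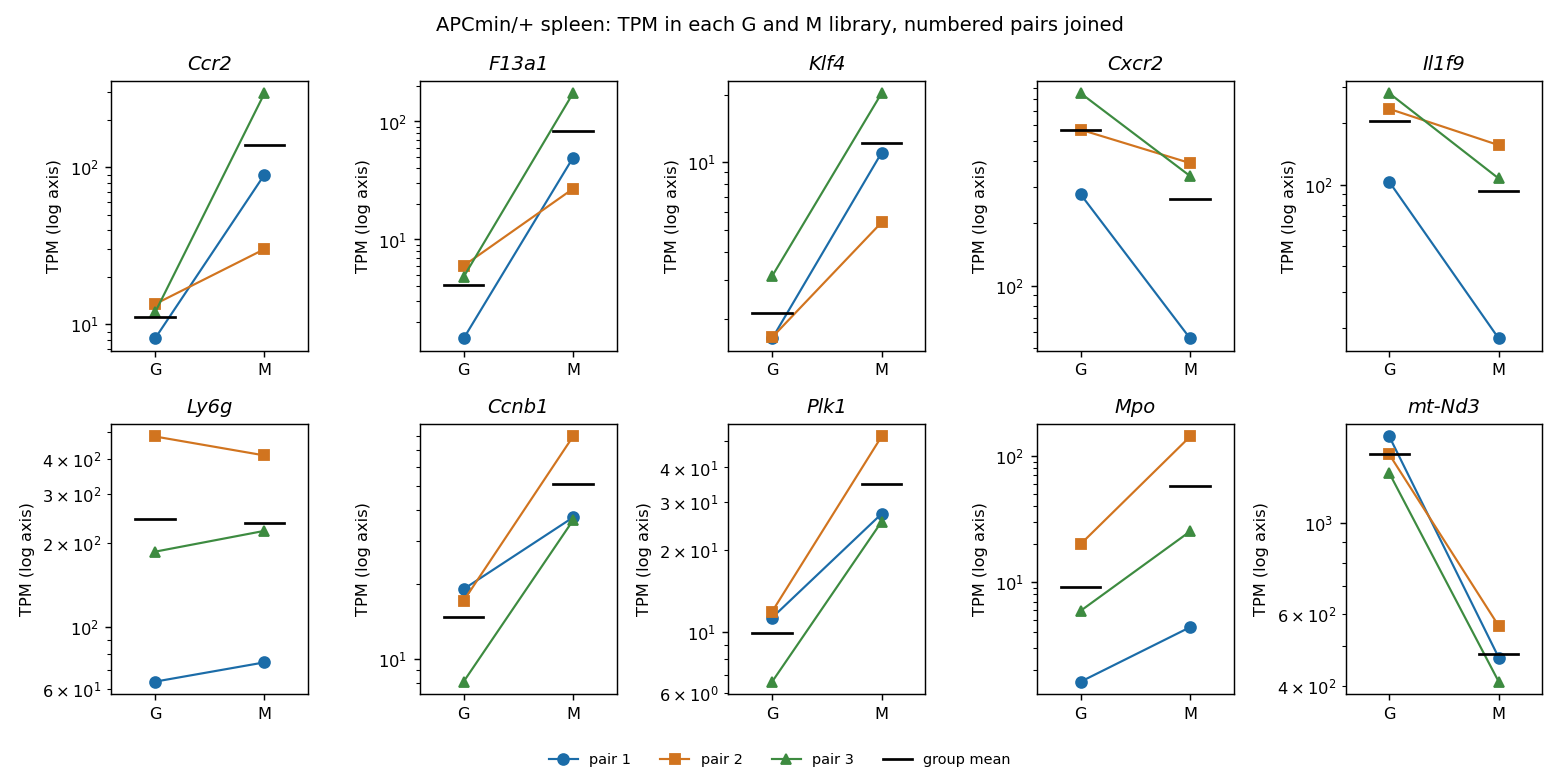
TPM of 10 genes in each library of APCmin/+ spleen, on log axes that differ between panels, with the G libraries on the left, the M libraries on the right, lines joining numbered pairs and black bars at the group means. Ccr2, F13a1 and Klf4 are lower in G in each pair with M library 2 nearest to G, Ly6g is higher in G in pair 2 and lower in G in the other pairs, and Ccnb1 and Plk1 are lower in G in each pair.

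Mature neutrophil genes rose in part, and the 3 pairs differed in how far. Of 22 such genes, all tested, 9 rose and 0 fell (0.743% and 3.67% of all genes), and the median was 0.96. Of the 22, 16 had the same upward sign in all 3 pairs (22.1% of all genes), 0 reached 1 in all 3, and the median differences of pairs 1, 2 and 3 were 1.38, 0.43 and 1.00. Cxcr2, the chemokine receptor that draws neutrophils into tissue (chromosome 1, 74153994 to 74161246), had 276, 567 and 851 TPM in the G libraries, against 55.6, 391 and 339 TPM in the M libraries. The groups overlapped, since G library 1 lay below M libraries 2 and 3, although G exceeded M in each pair (2.29, 0.54 and 1.33). The fitted log2 fold change was 1.39 ± 0.37 (adjusted p = 0.00685).

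Genes of neutrophil signalling had the same shape. Il1b, the cytokine interleukin-1 beta (chromosome 2, 129364569 to 129371164), had 522, 662 and 1643 TPM in the G libraries, against 97.4, 424 and 553 TPM in the M libraries (1.54 ± 0.44, adjusted p = 0.0098). Il1f9, an interleukin-36 cytokine, had 103, 234 and 279 TPM in the G libraries, against 17.8, 156 and 107 TPM in the M libraries (1.47 ± 0.38). For both genes M library 1 was far below the other M libraries, and G library 1 overlapped with them. Csf3r, the receptor for granulocyte colony-stimulating factor, Clec4d, a C-type lectin receptor, Trem1, an amplifier of inflammatory signals, Il1r2, a decoy receptor for interleukin-1, Ifitm1 and Mxd1, a partner of Max that opposes Myc, were the other members that rose, by between 1.04 and 1.49. Outside the list, Cd101, an inhibitory surface protein of late neutrophils, had 55.7, 57.7 and 129 TPM in the G libraries, against 10.5, 37.7 and 46.9 TPM in the M libraries, without overlap (1.45 ± 0.30, adjusted p = 9.5e-04). The metalloreductase gene Steap4 (1.51) and the skin protease gene Asprv1 (1.41) also rose. Without pair 1 the values were 0.93 for Cxcr2, 1.10 for Il1b, 0.98 for Il1f9, 1.02 for Cd101, 1.17 for Steap4 and 1.00 for Asprv1, and none of these 6 was called. Without pair 3 all of them but Cd101 lost their calls, at between 1.41 and 1.53.

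The most abundant neutrophil transcripts did not pass the test. S100a8, a subunit of calprotectin, had 7221, 38460 and 16620 TPM in the G libraries, against 9300, 32700 and 25440 TPM in the M libraries (-0.25 ± 0.68, adjusted p = 0.815). Its levels followed the number and not the sort, with libraries 2 the highest and libraries 1 the lowest. Ly6g, the antigen by which mouse neutrophils are usually identified (chromosome 15, 75155261 to 75159128), had 63.6, 481 and 186 TPM in the G libraries, against 74.6, 412 and 221 TPM in the M libraries. The difference was -0.08 ± 0.36 and became 0.12 on rescaling, neither of them called. The 22 genes summed to 24039, 111063 and 59015 TPM in the G libraries, against 26445, 93258 and 71770 TPM in the M libraries, so that G was the lower library in pairs 1 and 3. S100a8 and its partner S100a9 made up most of that sum. Without these 2, left out after the values were seen, the other 20 members summed to 5823, 14724 and 15687 TPM in the G libraries, against 2753, 10806 and 7937 TPM in the M libraries, higher in the G library of each pair. Set against the labels, 15 of the 22 monocyte genes were lower in G in all 3 pairs (39.7% of all genes). Of the 22 neutrophil genes 16 were higher in G in all 3 pairs (22.1% of all genes). These lay in the direction of the names of the sorts, while Ly6g, S100a8 and S100a9 did not separate the sorts. Without pair 1 the calls among the 22 neutrophil genes came to 0, without pair 3 to 1 and without the block to 0.

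Granule genes were listed by the stage at which they are made, and no test compared the lists. Primary granule genes, transcribed in promyelocytes, fell in 6 of 8 members and rose in 0 (3.67% and 0.743% of all genes), with a median of -1.81. The list also holds the progenitor marker Ms4a3 and the transcription factor gene Gfi1. Of the 8, 5 fell by at least 1 in each pair (0.599% of all genes). Secondary and tertiary granule genes, made later, fell in 2 of 16 and rose in 0, with a median of -0.19. Mpo, myeloperoxidase (chromosome 11, 87793784 to 87804412), had 1.63, 20.05 and 5.94 TPM in the G libraries, against 4.40, 142 and 25.2 TPM in the M libraries. Its groups overlapped, library 2 being the highest of each sort and G library 3 lying above M library 1, while the paired differences were -1.04, -2.77 and -1.92 (-1.91 ± 0.59, adjusted p = 0.0171). Elane, neutrophil elastase, had 1.17, 14.0 and 4.57 TPM in the G libraries, against 4.11, 86.5 and 19.9 TPM in the M libraries (-1.89 ± 0.40). Prtn3, proteinase 3, had 1.50, 15.9 and 5.68 TPM in the G libraries, against 6.87, 111.5 and 36.4 TPM in the M libraries (-2.29 ± 0.47). Ms4a3, a marker of granulocyte and monocyte progenitors, had 1.13, 6.77 and 2.82 TPM in the G libraries, against 11.7, 26.2 and 24.6 TPM in the M libraries, without overlap (-2.38 ± 0.31, adjusted p = 9.0e-06).

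The primary granule genes summed to 26.5, 144 and 57.1 TPM in the G libraries, against 95.8, 506 and 249 TPM in the M libraries, so G was lower in each pair and pair 2 was the highest of both sorts. Among the later granule genes, Fcnb, which encodes a ficolin, had 7.58, 26.8 and 10.95 TPM in the G libraries, against 84.9, 79.5 and 144 TPM in the M libraries (-2.82 ± 0.39, adjusted p = 1.4e-05). Chil3, a chitinase-like protein of neutrophils and monocytes, fell by 1.74, a call lost without pair 1 (-1.43) or pair 3 (-1.36). Ltf, lactoferrin, had 1312, 10400 and 3039 TPM in the G libraries, against 3240, 9921 and 8207 TPM in the M libraries, and was not called (-0.89 ± 0.47). Mmp9, a gelatinase of tertiary granules, had 437, 1559 and 989 TPM in the G libraries, against 147, 1223 and 624 TPM in the M libraries, and was not called either (0.86 ± 0.40). Without the block Ms4a3 alone of the primary granule list was called, and Mpo, Elane and Prtn3 were not. With a pair left out 5 or 6 of the list were called, Mpo dropping out without pair 3 (-1.90, adjusted p = 0.156).

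Genes of mitosis fell in the G sort. All 22 mitotic genes tested were called lower in the G sort (3.67% of all genes were). None of them overlapped between the sorts (17.4% of all genes lay wholly lower in G), and 6 fell by at least 1 in each pair (0.599% of all genes). The log2 fold changes lay between -1.71 and -1.19, with a median of -1.51 and pair medians of -0.90, -1.78 and -1.81. Ccnb1, the cyclin that drives entry into mitosis (chromosome 13, 100778739 to 100786486), had 19.1, 17.2 and 8.07 TPM in the G libraries, against 37.4, 79.55 and 36.4 TPM in the M libraries. The highest G library lay below the lowest M library, and M library 2 stood out as the highest (-1.71 ± 0.25, adjusted p = 2.5e-05). Plk1, a mitotic kinase, had 11.3, 11.9 and 6.61 TPM in the G libraries, against 27.1, 51.9 and 25.35 TPM in the M libraries (-1.67 ± 0.24, adjusted p = 2.0e-05). Ube2c, a ubiquitin-conjugating enzyme that acts with the anaphase-promoting complex, had 32.3, 36.1 and 15.5 TPM in the G libraries, against 68.0, 121 and 71.8 TPM in the M libraries (-1.63 ± 0.21). Mki67, which encodes the proliferation antigen Ki-67, had 42.1, 47.8 and 20.0 TPM in the G libraries, against 81.1, 161 and 75.35 TPM in the M libraries (-1.51 ± 0.23). The mitotic genes summed to 414, 438 and 205 TPM in the G libraries, against 799, 1565 and 779 TPM in the M libraries.

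The promoters of the listed mitotic genes were also read for 2 short motifs. CCAAT is the letter sequence bound by the factor NF-Y, and TTTGAA is the core of the element known as CHR, through which mitotic genes are repressed in resting cells and activated in dividing ones. Both were sought on both strands (as ATTGG and TTCAAA on the other), in the 300 bases from 250 before to 50 after the start of each RefSeq transcript on GRCm38.p6, the assembly that mm10 denotes, and neither motif contains the other. Of the 22 mitotic genes, 18 were matched, 16 of them (88.9%) held CCAAT and 13 (72.2%) TTTGAA, and 13 (72.2%) held both. Of all 27025 genes with a promoter, 41.1% held CCAAT, 20.2% TTTGAA and 7.97% both. Both motifs were found together in 12.5% of 16 replication genes, 10.5% of 19 monocyte genes and 0 of 20 neutrophil genes. A match describes letters only, and the shares of a list do not depend on levels in these libraries. They say nothing about why the mitotic genes were lower in the G sort. The promoters of 3 mitotic genes with values above are shown on the strand of the gene, with motif letters in capitals, at chr13:100786437-100786736 (minus strand), chr7:122159185-122159484 (plus strand) and chr2:164769679-164769978 (plus strand).
Ccnb1: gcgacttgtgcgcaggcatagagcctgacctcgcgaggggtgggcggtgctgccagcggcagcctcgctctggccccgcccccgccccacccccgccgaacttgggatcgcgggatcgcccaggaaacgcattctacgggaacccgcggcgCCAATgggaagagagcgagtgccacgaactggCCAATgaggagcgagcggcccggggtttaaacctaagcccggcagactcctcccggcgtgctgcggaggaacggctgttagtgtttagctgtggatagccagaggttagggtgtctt
Plk1: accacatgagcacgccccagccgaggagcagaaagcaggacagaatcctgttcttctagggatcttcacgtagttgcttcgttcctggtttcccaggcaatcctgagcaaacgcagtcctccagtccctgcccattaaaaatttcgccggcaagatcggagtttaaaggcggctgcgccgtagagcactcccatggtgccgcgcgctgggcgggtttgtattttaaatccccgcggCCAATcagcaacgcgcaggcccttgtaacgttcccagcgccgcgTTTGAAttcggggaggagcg
Ube2c: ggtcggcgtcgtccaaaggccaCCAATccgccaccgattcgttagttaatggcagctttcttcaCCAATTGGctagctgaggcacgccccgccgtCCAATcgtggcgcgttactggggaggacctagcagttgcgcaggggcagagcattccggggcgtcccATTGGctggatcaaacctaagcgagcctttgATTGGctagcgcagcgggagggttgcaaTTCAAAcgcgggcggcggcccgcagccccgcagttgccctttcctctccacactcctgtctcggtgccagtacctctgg
Ccnb1 held 2 CCAAT motifs and 0 TTTGAA in this window, Plk1 held 1 of each, and Ube2c held 6 and 1, a CCAATTGG run counting as 2.

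DNA replication genes fell in part. Of 20 tested, 12 fell and 0 rose (3.67% and 0.743% of all genes), with a median of -1.01 and pair medians of -0.41, -1.78 and -0.77. Rrm2, a subunit of ribonucleotide reductase, had 44.5, 39.9 and 17.8 TPM in the G libraries, against 78.3, 150.0 and 61.1 TPM in the M libraries (-1.47 ± 0.25, adjusted p = 1.4e-04). Mcm5, part of the replicative helicase, had 50.25, 36.4 and 27.4 TPM in the G libraries, against 72.6, 137 and 53.6 TPM in the M libraries (-1.12 ± 0.25). M library 2 was the highest of the 6 for both genes, and the fall of Mcm5 was no longer called without pair 2 (-0.73). The count of 12 came to 2 without pair 2, 4 after rescaling and 3 without the block, while the 22 mitotic genes gave 21 or 22 with a pair left out and 22 after rescaling or without the block. Of 7 tested cell cycle inhibitors and retinoblastoma family genes, 2 fell. Cdkn2c, which encodes the inhibitor p18, had 10.5, 9.65 and 5.46 TPM in the G libraries, against 20.3, 26.8 and 17.8 TPM in the M libraries (-1.27 ± 0.16). Cdkn1a, the inhibitor p21, had 1.58, 2.53 and 3.05 TPM in the G libraries, against 5.87, 3.15 and 12.6 TPM in the M libraries (-1.13 ± 0.24), a call lost without pair 1 (-0.99) or pair 3 (-0.82). Cdkn1b, the inhibitor p27, was higher in G in each pair but by less than 2-fold (0.44 ± 0.11, adjusted p = 0.0044).

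**Figure D3:**
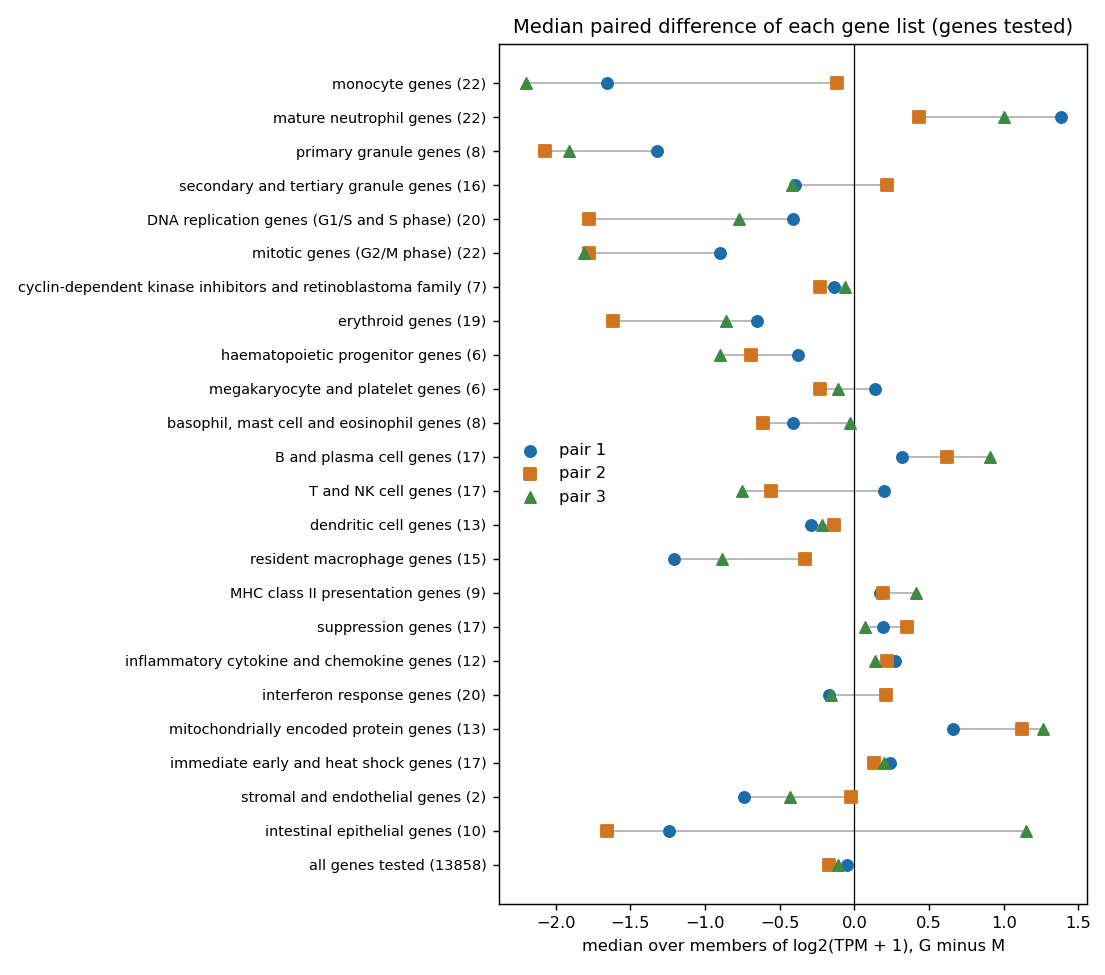
Median paired difference of log2(TPM + 1), G minus M, of each gene list in pair 1 (circles), pair 2 (squares) and pair 3 (triangles), with the number of genes tested in parentheses. Mitotic and primary granule genes lie at -0.90 or lower in every pair, monocyte genes lie near 0 in pair 2, and all 13858 genes lie near 0.

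Red cell precursors divide too, and some of their genes were among those that fell. Of 19 erythroid genes tested, 6 fell and 0 rose (3.67% and 0.743% of all genes), with a median of -1.07 and pair medians of -0.65, -1.62 and -0.86. Gata1, the erythroid transcription factor, had 15.2, 12.8 and 5.95 TPM in the G libraries, against 26.0, 65.4 and 11.6 TPM in the M libraries. The groups overlapped, and M library 2 was the highest (-1.29 ± 0.35, adjusted p = 0.00692, and -0.80 without pair 2, not called). The 6 genes that fell were Gata1, Hemgn, Epor, the erythropoietin receptor, Tfr2, Ermap and Car2, while the globin gene Hbb-bs had 4458, 5380 and 1972 TPM in the G libraries, against 7988, 7184 and 1806 TPM in the M libraries, and was not called. The list summed to 14036, 16392 and 6012 TPM in the G libraries, against 25511, 25357 and 5930 TPM in the M libraries, and most of that sum was globin. Without the 4 globin genes, left out after the values were seen, the other 15 members summed to 817, 946 and 297 TPM in the G libraries, against 1215, 3196 and 548 TPM in the M libraries, lower in the G library of each pair. The part of erythroid cells in the mitotic result was not tested. Without the block 0 erythroid genes were called, without pair 3 also 0, without pair 1 there were 3 and without pair 2 there was 1.

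Few markers of other cell types passed the test, and counts of 1 or 2 in a list stand against the 3.67% of all genes called lower and the 0.743% called higher. The summed level of the 17 B and plasma cell genes was 59210, 36282 and 31379 TPM in the G libraries, against 56022, 30598 and 22543 TPM in the M libraries, and 0 were called in either direction at a median of 0.64, although 16 of the 17 were higher in G in all 3 pairs (22.1% of all genes). Pax5, the B cell transcription factor, had 287, 162 and 252 TPM in the G libraries, against 200, 75.1 and 96.3 TPM in the M libraries, just under the 2-fold limit (1.00 ± 0.35, adjusted p = 0.0343). Of 17 T and NK cell genes 1 fell, Nkg7, a granule protein of killer cells (-1.21 ± 0.44), and their sum lay between 256 and 333 TPM in the G libraries, against 291 and 547 TPM in the M libraries. Of 15 resident macrophage genes 1 fell, Siglec1, a lectin of marginal zone macrophages, with 8.60, 5.76 and 6.04 TPM in the G libraries, against 29.65, 7.75 and 20.5 TPM in the M libraries (-1.22 ± 0.35). The groups overlapped in M library 2, and 14 of the 15 genes were lower in G in all 3 pairs (39.7% of all genes). Of 8 basophil, mast cell and eosinophil genes 2 fell, the basophil proteases Mcpt8 (-1.24) and Prss34 (-1.30), both highest in M library 2, at 20.5 and 30.4 TPM. Calls were lost for Nkg7 without pair 2 (-1.04) or pair 3 (-0.93), for Siglec1 without pair 1 (-0.99) or pair 3 (-1.02), for Mcpt8 without pair 3 (-1.14) and for Prss34 without pair 2 (-0.96).

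Of 13 dendritic cell genes 1 rose and 2 fell. Siglech, a surface lectin of plasmacytoid dendritic cells, had 11.7, 14.0 and 10.9 TPM in the G libraries, against 5.24, 4.55 and 5.74 TPM in the M libraries, without overlap (1.09 ± 0.33, adjusted p = 0.014). Cd209a, a lectin of monocyte-derived dendritic cells, fell by 1.12, and Batf3, a factor of cross-presenting dendritic cells, by 1.01. The call of Siglech was lost with any pair left out (1.13, 0.93 and 1.23 without pairs 1, 2 and 3), that of Cd209a without pair 3 (-0.75) and that of Batf3 without pair 1 (-0.78) or pair 3 (-0.87). Of 6 tested progenitor genes 1 fell, Cd93 (-1.01, and -0.43 without pair 3), and Kit, the stem cell factor receptor, had 6.46, 6.27 and 4.40 TPM in the G libraries, against 7.21, 21.5 and 8.48 TPM in the M libraries (-0.86, not called). None of 6 megakaryocyte genes (0), 9 genes of MHC class II presentation, 10 intestinal epithelial genes or 2 stromal and endothelial genes were called. Epithelial genes summed to at most 53.4 TPM in a G library, against 80.7 TPM in an M library, and 12 of 14 stromal and endothelial genes were below the limit for testing.

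**Figure D4:**
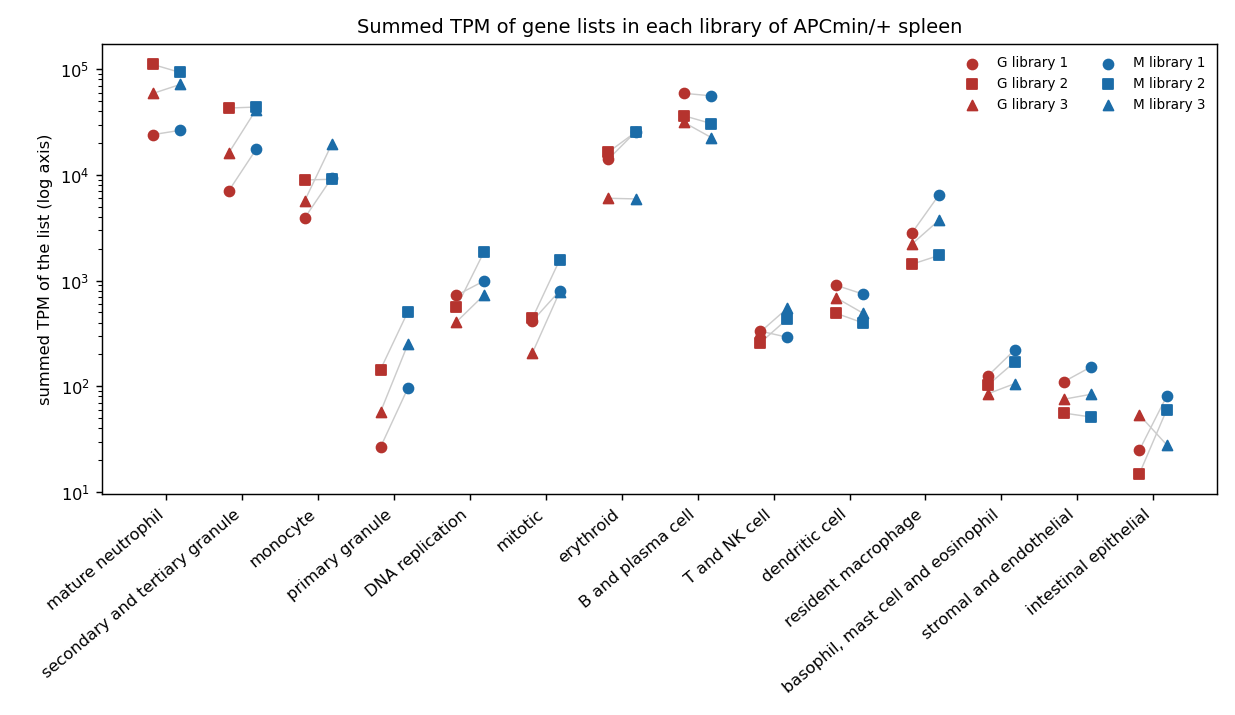
Summed TPM of the genes of each list in the 3 G (red) and 3 M (blue) libraries of APCmin/+ spleen, on a log axis, with numbered pairs joined. Sums of primary granule, replication and mitotic genes are lower in the G library of each pair, whereas neutrophil sums, made up mostly of S100a8 and S100a9, and B cell sums lie close together within pairs.

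Transcripts encoded in the mitochondrial genome were the other group that rose. Of 13 protein-coding genes, all tested, 7 rose and 0 fell (0.743% and 3.67% of all genes). The median was 1.02, and pair medians were 0.66, 1.12 and 1.26. The gene mt-Nd3, of respiratory complex I, had 1622, 1467 and 1321 TPM in the G libraries, against 470, 561 and 411 TPM in the M libraries. The groups lay far apart, with paired differences of 1.78, 1.39 and 1.68 (1.62 ± 0.30, adjusted p = 2.8e-04). The gene mt-Atp6, a subunit of ATP synthase, had 830, 873 and 946 TPM in the G libraries, against 344, 306 and 267 TPM in the M libraries (1.53 ± 0.27), and mt-Cytb, of complex III, rose by 1.11. Of the 13 genes, 11 did not overlap between the sorts, where 4.59% of all genes lay wholly higher in G. Without pair 3 the count was 2, and after rescaling it was 11. Such transcripts are also a measure of RNA quality and of cell state, and neither was tested.

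Among genes tied to suppression 1 passed the test. Of 22 such genes 17 were tested, 1 rose and 0 fell (0.743% and 3.67% of all genes). Arg2, the mitochondrial arginase, had 47.6, 79.2 and 132 TPM in the G libraries, against 8.98, 57.4 and 49.7 TPM in the M libraries, with an overlap by G library 1 (1.38 ± 0.27, adjusted p = 6.1e-04), and its call was lost without pair 1 (0.93). Arg1 and Nos2, the arginase and the nitric oxide synthase most often used to define suppressor cells, reached at most 0.35 and 0.33 TPM in any of the 6 libraries and were not tested. Cybb, the membrane subunit of the NADPH oxidase, had 193, 441 and 224 TPM in the G libraries, against 408, 447 and 768 TPM in the M libraries, short of the 2-fold limit (-0.96 ± 0.27). Cd274, which encodes PD-L1, had 37.9, 23.8 and 46.8 TPM in the G libraries, against 31.9, 17.0 and 25.65 TPM in the M libraries, and did not pass the test (0.52 ± 0.23, adjusted p = 0.0875). Among 12 tested cytokine and chemokine genes, Csf1, macrophage colony-stimulating factor, rose, with 39.7, 26.5 and 115 TPM in the G libraries, against 10.5, 14.7 and 34.5 TPM in the M libraries (1.44 ± 0.37). Without pair 1 (1.26) or pair 3 (1.31) it was not called. Of 17 immediate early genes, which respond to handling, 1 rose, the phosphatase gene Dusp1 (1.14 ± 0.42, and 0.87 without pair 1 and 1.06 without pair 3, not called), and of 20 interferon response genes 0 were called.

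How far this contrast was particular to APCmin/+ spleen was asked by testing it against the same contrast in BALB/c spleen, which shares no library with it. In BALB/c spleen 302 genes (2.18%) were higher and 522 (3.77%) lower in the G sort. Of the 103 higher genes of APCmin/+ spleen 76 were also higher there (73.8% of the 103 and 25.2% of the 302), and of the 508 lower genes 169 were also lower (33.3% of the 508 and 32.4% of the 522). The difference of the contrasts, APCmin/+ minus BALB/c, passed the test upward for 165 genes (1.19%) and downward for 286 (2.06%). BALB/c libraries were fitted with no pairs.

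Mitotic genes carried one of these differences. Their median was -1.51 in APCmin/+ spleen against -0.42 in BALB/c spleen. There all 22 were lower in the G sort, between -0.65 and -0.06, and 0 reached the 2-fold limit of a call. By limma's test some had an adjusted p under 0.05 there, such as Nusap1 (-0.49, adjusted p = 0.0039), and others did not, such as Cdc20 (-0.06, adjusted p = 0.79). For 16 of the 22 the difference itself passed, all downward (2.06% of all genes). Ccnb1 had a difference of -1.25 ± 0.31 (adjusted p = 0.0141) and Cdc20, an activator of the anaphase-promoting complex, of -1.49 ± 0.26 (adjusted p = 6.6e-04), and that of Ccnb1 was lost without pair 3 (-1.08). Without the block neither passed (adjusted p = 0.27 for Ccnb1 and 0.0685 for Cdc20). Mature neutrophil genes carried another, with 18 of 22 higher in BALB/c G sorts at a median of 2.83, against 9 of 22 at 0.96 in APCmin/+ spleen. Of their 22 differences 11 passed, all downward (2.06% of all genes). For Cxcr2 the log2 fold change was 1.39 in APCmin/+ spleen and 4.92 in BALB/c spleen, a difference of -3.54 ± 0.46 (adjusted p = 2.3e-05). For Ly6g it was -0.08 and 2.58, a difference of -2.66 ± 0.45 (adjusted p = 5.2e-04, and 0.128 without the block, where that of Cxcr2 still passed). Mean TPM of Cxcr2 in G and M sorts was 565 and 262 in APCmin/+ spleen, against 262 and 8.44 in BALB/c spleen. The means of Ly6g were 243.5 and 235.6, against 112 and 17.3. These levels were not tested between spleens. Monocyte genes fell in both spleens, in 12 and 16 of 22. Of their 22 differences 8 passed, all upward (1.19% of all genes), among them Ccr2 (2.57 ± 0.58, adjusted p = 0.00666). That of Ccr2 was 1.64 without pair 2 and did not pass without the block (adjusted p = 0.136).

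A few genes went opposite ways or moved in 1 spleen. H2-Q10, an MHC class Ib gene with close relatives that can share reads (chromosome 17, 35470089 to 35474563), had 176, 149 and 355 TPM in the G libraries of APCmin/+ spleen, against 37.1, 97.6 and 123 TPM in the M libraries, without overlap (1.45 ± 0.23, adjusted p = 6.9e-05). In BALB/c spleen its log2 fold change was -0.04, and the difference of 1.48 ± 0.29 passed (adjusted p = 0.00179), although not without pair 1 (1.10, adjusted p = 0.0578) or without the block (adjusted p = 0.125). Siglech rose by 1.09 in APCmin/+ spleen and fell by 1.81 in BALB/c spleen, a difference of 2.90 ± 0.41 (adjusted p = 5.9e-05). Oasl2, an interferon-induced gene, had 205, 260 and 637 TPM in the G libraries of APCmin/+ spleen, against 78.8, 189 and 322 TPM in the M libraries, which was not called (0.94). It fell by 1.88 in BALB/c spleen, and the difference of 2.82 ± 0.34 passed (adjusted p = 8.1e-06). The mitochondrially encoded genes had medians of 1.02 and 1.27 in the 2 spleens, and 0 of their 13 differences passed. Strain, genotype and immune status differ together between the 2 kinds of mice and cannot be told apart. Without the block 25 differences passed upward and 13 downward.

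**Figure D5:**
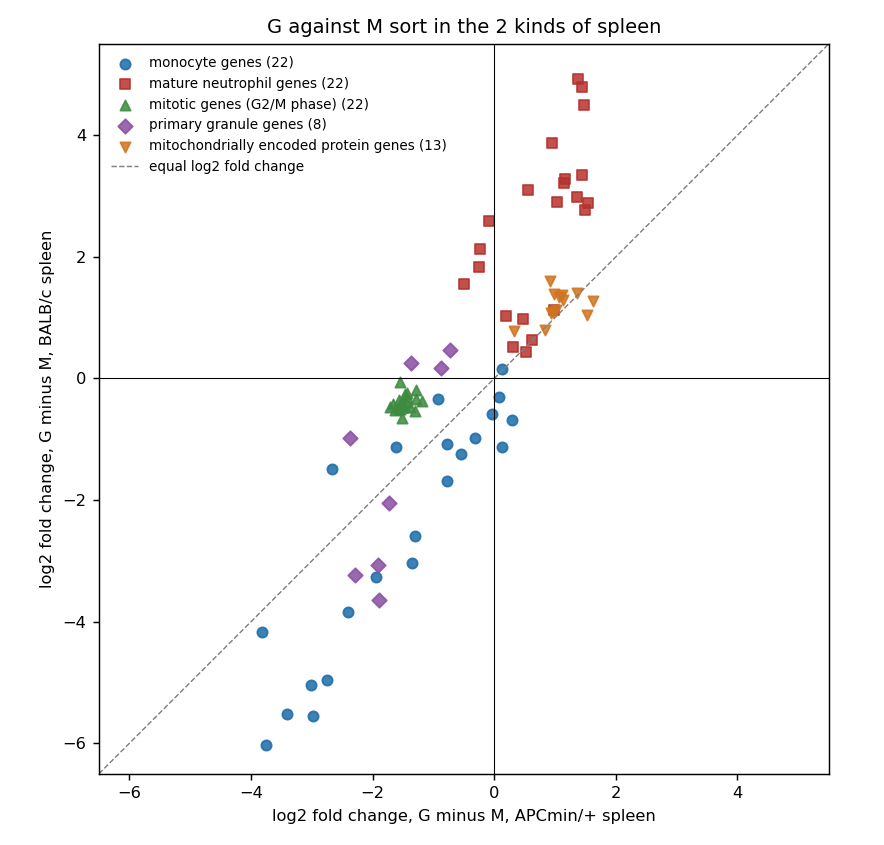
Log2 fold change, G minus M, in APCmin/+ spleen (horizontal axis) and BALB/c spleen (vertical axis) for the genes of 5 lists, with a dashed line at equal values. Mitotic genes (green) lie between -1.71 and -1.19 on the horizontal axis and between -0.65 and -0.06 on the vertical axis, most neutrophil genes (red) lie above the line, and mitochondrially encoded genes (orange) lie along it.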

How the data were processed

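Polyadenylated RNA of sorted mouse cells was measured by sequencing. Sorted cells went into Trizol and TruSeq stranded mRNA libraries were made from them, per the labels' protocols. Per the submitters' processing notes, bcl2fastq 2.18 wrote the reads, STAR 2.6.1c aligned them to mm10 and RSEM quantified them, its version and gene annotation being not given in the sources used here. TPM values, which the authors made with RSEM and deposited, sum to 1000000 in each library and keep no read counts, so depth is unknown and no counting error is given. As deposited, 26 symbols had been turned into dates, which were restored from gene identifiers. Of 53465 identifiers 53274 matched a gene name, and 220 entries whose symbol occurs more than once stayed separate. No 2 libraries were identical.

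Values were analysed as log2(TPM + 1) with limma 3.58.1 in R 4.3.3. A single fit held all 39 libraries, with the pair number as a block within the 6 libraries and 1 mean for each other group. Array weights gave 1 variance to the 6 libraries together, so G and M sorts had none of their own, and 1 to each other group. The fit had a trend of variance with level. Benjamini-Hochberg adjustment ran over the 13858 genes. Fold changes on this scale understate the change of low genes. Nothing in the labels says that the libraries of 1 sort are from different animals, so p values cannot be said to measure the spread between animals. They rest on a spread pooled within the groups of all 39 libraries, with 24 residual degrees of freedom, and not on the 6 libraries alone. Deviations of same-numbered G and M libraries from their group means correlated at 0.634, 0.415 and 0.476, and those of different numbers at between -0.473 and 0.033. Deviations within a sort sum to 0, so low values for different numbers follow in part from high values for equal ones. They are no separate support for the pairing. The pairing was set by the number in the titles, and the labels leave the meaning of a number unstated. The script was tested on simulated data, and tables were made in Python 3.11.15 with pandas 2.3.3.

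The comparison, its members and the gene lists were chosen with earlier results of these data known. The genes named are drawn from a panel of 30, from the 12 largest and 12 smallest called fold changes with 1 sign in all pairs and a mean TPM of at least 20 in the higher group (without provisional symbols, receptor segments and pseudogenes), from up to 5 members of each list by smallest p at a TPM of at least 5, and from the 6 largest and 6 smallest differences between spleens. Car2, Cd14, Csf3r, Il1r2, Irf8, Ms4a6c, Tgfbi, Trem1 and Vcan were named after their values were seen. Alternatives were a pseudocount of 0.1, no filter, a filter over all 39 libraries, rescaling by median ratios, no fold minimum, equal weights, fits of the 6 libraries alone, no block, and each pair or library left out.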

Additional observations from a re-analysis of the deposited data

Results flagged for a closer look

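The results below stand out because the G against M contrast differed between APCmin/+ and BALB/c spleen by limma's test of the difference, at an adjusted p under 0.05 and a difference of at least 1 on the log2 scale. Values are the difference of the log2 fold changes, APCmin/+ minus BALB/c. What the difference comes from was not tested, and strain, genotype and immune status cannot be told apart.

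Mature neutrophil and late granule genes had a contrast that was smaller in APCmin/+ spleen. The differences were -3.54 for Cxcr2, -3.36 for Stfa2l1, -3.25 for Mmp9, -3.02 for Il1f9, -2.93 for Hdc, -2.77 for Ltf and -2.66 for Ly6g. They were -2.58 for Steap4, -2.55 for Cd101, -2.54 for Asprv1, -1.91 for Ifitm1, -1.86 for Mxd1 and -1.23 for Arg2. Without pair 3 those of Hdc, Stfa2l1, Ltf, Ifitm1, Asprv1 and Arg2 no longer passed, nor did those of Ifitm1 and Arg2 without pair 2. Each gene named in this paragraph had higher mean TPM in both sorts of APCmin/+ spleen than in the same sorts of BALB/c spleen. For Mmp9 the means of G and M sorts were 995 and 665 TPM in APCmin/+ spleen, against 254 and 14.2 TPM in BALB/c spleen. Levels were not tested between spleens.

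Monocyte genes that were lower in the G sort of both spleens were less so in APCmin/+ spleen, by 2.57 for Ccr2, 2.26 for F13a1, 2.22 for Cx3cr1, 2.11 for S100a4, 2.02 for Ccl9 and 1.33 for Klf4. Without pair 2 those of S100a4, Ccl9 and Klf4 no longer passed and those of Ccr2, F13a1 and Cx3cr1 came to 1.64, 1.39 and 1.38, and that of S100a4 did not without pair 1 either. Further upward differences were 2.66 for Emp1, 2.64 for Arhgef37 (1.57 without pair 2), 2.33 for Ldlrad3 and 1.23 for Cdkn1a, the last not passing without pair 2. Siglech (2.90), Oasl2 (2.82), H2-Q10 (1.48) and Mx1 (1.36) also differed upward, that of Mx1 not passing with any pair left out and that of H2-Q10 not without pair 1.

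Of 22 mitotic genes 16 fell more in APCmin/+ spleen, and of 20 replication genes 2 did, where 2.06% of all genes had a downward difference that passed. The differences of mitotic genes were -1.49 for Cdc20, -1.26 for Plk1, -1.25 for Ccnb1, -1.14 for Kif11, -1.12 for Ube2c, -1.06 for Nusap1 and -1.04 for Mki67. The replication gene Uhrf1 had -1.11. Without pair 3 those of Plk1, Ccnb1, Kif11, Ube2c, Nusap1, Mki67 and Uhrf1 no longer passed, and that of Cdc20 did. Without pair 2 those of Mki67, Nusap1 and Uhrf1 were also lost.

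Among genes of precursors the differences were -1.47 for Epor, -1.40 for Ms4a3 and -1.19 for Gfi1, and in the other direction 1.74 for Elane. The basophil protease gene Prss34 had -1.12, with BALB/c means of 0.057 and 0.24 TPM in G and M sorts. With a pseudocount of 0.1 those of Ms4a3, Elane and Prss34 did not pass limma's test (adjusted p = 0.223, 0.0942 and 0.497). Each of these 5 differences was lost with 1 or more pairs left out. Without the block 7 of the 40 differences named here passed, those of Cxcr2, Cd101, Arhgef37, Emp1, Ldlrad3, Siglech and Oasl2.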

How the results depend on the processing

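The 103 higher and 508 lower calls became 168 higher with a pseudocount of 0.1, 218 and 282 after rescaling and 969 and 3130 with no fold minimum, and they became 0 and 0 in fits of the 6 libraries alone, with the replicate block (5056 at an unadjusted p under 0.05) or without it (2263). Without the replicate block they were 23 and 225. With 1 pair left out they ranged from 45 to 202 higher and from 285 to 634 lower. With no block and G library 1, 2 or 3 left out they were 96, 47 and 0 higher and 414, 253 and 0 lower (1255 at an unadjusted p under 0.05 for the last), and with M library 1, 2 or 3 left out 24, 34 and 11 higher and 157, 274 and 102 lower. Genes past 1 in all pairs became 39 higher and 182 lower with a pseudocount of 0.1 and 32 and 40 after rescaling, and ranged from 34 to 139 and from 148 to 386 over the 2 pairs that remained. Differences between spleens were 362 upward and 476 downward with no fold minimum and 25 and 13 without the block, and ranged from 104 to 164 and from 113 to 319 with a pair left out. In either fit of the 6 libraries alone 0 monocyte, neutrophil, primary granule, replication and mitotic genes were called. Without the block neutrophil calls became 0, primary granule calls 1 (the progenitor marker Ms4a3) and replication calls 3, and after rescaling replication calls became 4. With a pair left out calls ranged from 9 to 15 for monocyte, 0 to 11 for neutrophil, 5 to 6 for primary granule, 2 to 17 for replication and 21 to 22 for mitotic genes. Of the single genes, Ly6g turned to 0.116 and Rb1 to 0.027 after rescaling, neither called. The cause of these changes was not tested, beyond that fits of 6 libraries or 2 pairs have fewer samples. Over genes and alternatives, 942 fold changes kept their sign and side of the threshold, 262 lost their call and 30 gained one. Of the differences between spleens 312 kept theirs and 88 lost it.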

Other observations

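Of 20 interferon response genes 0 were called in APCmin/+ spleen, at a median of -0.05. In BALB/c spleen 6 were lower in the G sort (3.77% of all genes), at a median of -0.69. For 5 of the 20 the difference of the contrasts passed limma's test, all upward (1.19% of all genes). Bst2, the antiviral protein tetherin, had 59.2, 35.1 and 42.6 TPM in the G libraries of APCmin/+ spleen, against 90.2, 51.9 and 86.8 TPM in the M libraries (-0.72 ± 0.24, under the 2-fold limit). Dendritic cell genes rose in 1 and fell in 2 of 13 members in APCmin/+ spleen (0.743% and 3.67% of all genes). They were lower in 7 of 13 in the G sort of BALB/c spleen (3.77% of all genes), and 3 differences passed, all upward (1.19%).

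Ribosomal protein genes took 9.07%, 5.48% and 6.91% of TPM in G libraries 1, 2 and 3, against 9.91%, 9.00% and 8.77% in M libraries 1, 2 and 3. The 10 most abundant genes took 19.9%, 25.2% and 20.0% in the G libraries, against 15.4%, 18.05% and 15.3% in the M libraries, without overlap.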
